A study of Mus musculus with 11 samples.

Results

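The enzymes and carriers of glycolysis and a panel of hypoxia-inducible genes were followed across 3 compounds in a mouse T-cell leukaemia line. The set was given as a list of 39 gene symbols, and each gene was read from the probe set with the highest mean among its probe sets that carry a single symbol. Of the 39 genes, 34 were measured, out of 22180 genes on the array. Aldoa, Bnip3l and Ankrd37 lay on probe sets with several symbols and Gpi1 and Eno1 were unnamed here, so these 5 were not analysed here. Ero1l is given under its current symbol Ero1a.

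All arrays hold RNA of the murine T-ALL line 720. The line comes from a Tcf12+/- mouse in which the Lck promoter drove a Tal1 transgene, and every culture received a Runt domain inhibitor for 8 h. The inhibitors carry code names, and the Runt domain is the part of RUNX transcription factors that binds DNA. The final concentration was 100 µM for AI-7-54, of which replicates 1, 3 and 4 were analysed here. It was likewise 100 µM for the 4 replicates of AI-8-45, and 50 µM for the 4 of AI-9-54. With no vehicle control among these samples, every difference sets compound against compound. RNA came from live cells recovered after treatment, all from a single line. The labels do not say whether replicates were separate cultures, so the p-values cover only array-to-array spread, which could be technical in origin. In bulk RNA, a change in the mix of cells and a change in RNA per cell cannot be told apart.

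Glycolysis splits glucose into pyruvate in a preparatory phase that spends ATP and a payoff phase that makes it, and proliferating T cells and T-cell leukaemias lean on it heavily. When oxygen falls, prolyl hydroxylases of the EGLN family stop marking the transcription factor subunit HIF1A for destruction by the VHL ligase. HIF1A then pairs with ARNT and induces glucose carriers, glycolytic enzymes, lactate export and genes such as Vegfa. The pair binds DNA at a core of ACGTG or GCGTG. EGLN3 and several other regulators are themselves induced by HIF and act in feedback.

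Promoter sequences were available for 36 of the 39 genes in RefSeq (build GRCm38.p6), and the 250 bases before each gene start were searched for ACGTG and GCGTG on both strands. At least 1 match lay before 32 of the 36 genes, 22 with ACGTG and 23 with GCGTG, against 41.5%, 18.5% and 30.9% of all 27025 genes with a promoter entry. A gene with several starts was counted if any of them held a match, and the start with the most matches is shown. Genes with more starts thus had more chances of a match. Both cores hold CG, and neither the number of starts nor the base content was matched between the list and all genes. A CACGTG, which also is an E-box, holds ACGTG on both strands and was counted as 2 matches. It lay before 6 of the 36 genes and 6.86% of all genes. A match is a description of the letters and not a binding site. The promoters shown belong to the 4 genes with the most matches among those that differed between compounds, and to Ldha, a gene that separated by replicate number, chosen after its values were seen. Capitals mark the matches, and each line runs 5′ to 3′ and ends at the base before the annotated start. The positions are chr3:104638414-104638663, plus strand, for Slc16a1, chr12:73907617-73907866, plus strand, for Hif1a, chr14:45318573-45318822, minus strand, for Ero1a, chr17:46025164-46025413, minus strand, for the downstream of 2 RefSeq starts of Vegfa, of which the upstream one held no match, and chr7:46845554-46845803, plus strand, for Ldha.
Slc16a1: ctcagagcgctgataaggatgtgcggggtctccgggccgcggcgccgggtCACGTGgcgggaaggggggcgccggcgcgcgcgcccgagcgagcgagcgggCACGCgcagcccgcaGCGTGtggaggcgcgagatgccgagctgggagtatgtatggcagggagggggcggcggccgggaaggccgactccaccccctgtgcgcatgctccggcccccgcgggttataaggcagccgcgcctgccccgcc
Hif1a: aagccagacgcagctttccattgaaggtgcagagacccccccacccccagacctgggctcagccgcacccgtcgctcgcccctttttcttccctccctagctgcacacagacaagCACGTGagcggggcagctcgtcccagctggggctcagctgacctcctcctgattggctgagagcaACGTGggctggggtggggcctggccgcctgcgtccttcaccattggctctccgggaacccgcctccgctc
Ero1a: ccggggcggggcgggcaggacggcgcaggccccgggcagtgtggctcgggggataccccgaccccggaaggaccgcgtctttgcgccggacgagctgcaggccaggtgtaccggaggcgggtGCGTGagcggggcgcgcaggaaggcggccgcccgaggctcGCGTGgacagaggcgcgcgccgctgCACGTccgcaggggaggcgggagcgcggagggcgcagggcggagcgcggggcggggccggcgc
Vegfa: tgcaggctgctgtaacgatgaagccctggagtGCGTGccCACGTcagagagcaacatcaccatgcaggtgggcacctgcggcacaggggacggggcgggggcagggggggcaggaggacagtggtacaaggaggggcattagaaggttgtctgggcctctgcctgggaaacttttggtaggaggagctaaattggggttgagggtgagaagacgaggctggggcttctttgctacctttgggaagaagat
Ldha: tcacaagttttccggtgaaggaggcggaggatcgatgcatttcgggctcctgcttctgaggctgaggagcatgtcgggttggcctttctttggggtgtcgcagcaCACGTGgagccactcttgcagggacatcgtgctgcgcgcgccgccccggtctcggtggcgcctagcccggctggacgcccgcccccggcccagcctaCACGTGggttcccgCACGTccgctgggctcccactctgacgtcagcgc
Hif1a itself carried 3 ACGTG matches, Slc16a1 and Ero1a carried both cores, and the matches of Vegfa lay close together. The Vegfa stretch shown lies inside the gene as read from its upstream start. The 250 bases before that upstream start (chr17:46032378-46032627, minus strand) held no match, so the Vegfa matches do not describe it. Ldha carried 5 ACGTG matches, as many in all as the dim gene Bnip3 and more than any other of the 36 genes.

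The median log2 value of an array was between 6.61 and 6.68, and precision is limited by how many arrays there are. The CD3 subunit genes of the T-cell receptor, Cd3d, Cd3e and Cd3g, averaged 11.78, 13.00 and 12.98, and the median of 9 measured T-lineage markers was 11.06. Rag2, at 6.05, lay below the array medians. Markers of the B, myeloid and erythroid lineages had median levels of 6.22, 6.32 and 6.17, those of stroma and endothelium 6.94 (with Pecam1 at 11.31), and 0 of their 24 measured genes were called by limma in any comparison. Of the T-lineage markers, Thy1 (-0.50, adjusted p 6.12e-05) and Ptcra (-0.53, 0.00709) were lower under AI-9-54 than under AI-7-54, and Thy1 was also lower than under AI-8-45 (-0.36, 0.00359). Their part in the results was not tested. Earlier results of these data had separated replicates 1 and 2 from replicates 3 and 4 within every compound. The labels attach no date, culture or batch to the replicate numbers. In the glycolysis and hypoxia genes this division took more of the median variance than compound did, and it is described first, without a test, because the division was found in these same arrays.

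All replicate 3 and 4 arrays lay above all replicate 1 and 2 arrays of the same compound, under every compound, for 17 of 34 genes, and below them for 1, Hk1. Over all genes these shares were 5.64% above and 5% below. The 17 were 1 of 4 carriers (the glucose carrier gene Slc2a1), 4 of 7 genes of the preparatory phase, 1 of 2 PFKFB genes, 3 of 5 genes of the payoff phase, 1 of 2 genes for the fate of pyruvate, 2 of 4 oxygen-sensing genes and 5 of 10 of the hypoxia panel. The mean gap (replicates 3 and 4 minus replicates 1 and 2, averaged over the compounds) had a median of 0.15 on the log2 scale in the 34 genes and 0.00 over all genes. It exceeded 0.5 for 5 of the 34 genes and for 0.14% of all genes.

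Pfkl encodes the liver-type subunit of phosphofructokinase, the main control point of glycolysis. After AI-7-54 its log2 level was 9.80 in replicate 1 and 10.48 and 10.36 in replicates 3 and 4. After AI-8-45 it was 9.53 and 9.56 in replicates 1 and 2 and 10.63 and 10.79 in replicates 3 and 4. After AI-9-54 the levels were 9.38 and 9.62 against 10.88 and 10.90. The gap thus was 0.62 under AI-7-54, 1.17 under AI-8-45 and 1.39 under AI-9-54, and in the mean of these gaps Pfkl ranked 3 among 22180 genes. Tpi1, the gene for triosephosphate isomerase, ranked 4. It read 11.03 against 11.61 and 11.50 after AI-7-54, 10.61 and 10.70 against 11.52 and 11.80 after AI-8-45, and 10.45 and 10.63 against 11.94 and 11.95 after AI-9-54. The arrays of replicates 1 and 2 were thus low and those of replicates 3 and 4 high for both enzymes, with no overlap inside a compound.

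The hypoxia-inducible gene Ndrg1 ranked 5, with gaps of 0.45, 0.96 and 1.07 under AI-7-54, AI-8-45 and AI-9-54. Its levels were 8.37 against 8.78 and 8.86, 8.13 and 8.19 against 9.06 and 9.18, and 8.23 and 8.22 against 9.36 and 9.24, in the same order of compounds. Slc2a1, the gene for the basal glucose carrier, ranked 13 with gaps of 0.30, 0.77 and 0.85. Its levels were 10.55 against 10.86 and 10.83, then 10.45 and 10.41 against 11.24 and 11.16, then 10.51 and 10.45 against 11.31 and 11.35. Egln1, the main oxygen-sensing prolyl hydroxylase, had gaps of 0.19, 0.59 and 0.80 (rank 28). All 3 genes had a narrower gap under AI-7-54 than under the other compounds. For AI-7-54, replicate 1 alone stands for the lower pair.

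**Figure D1:**
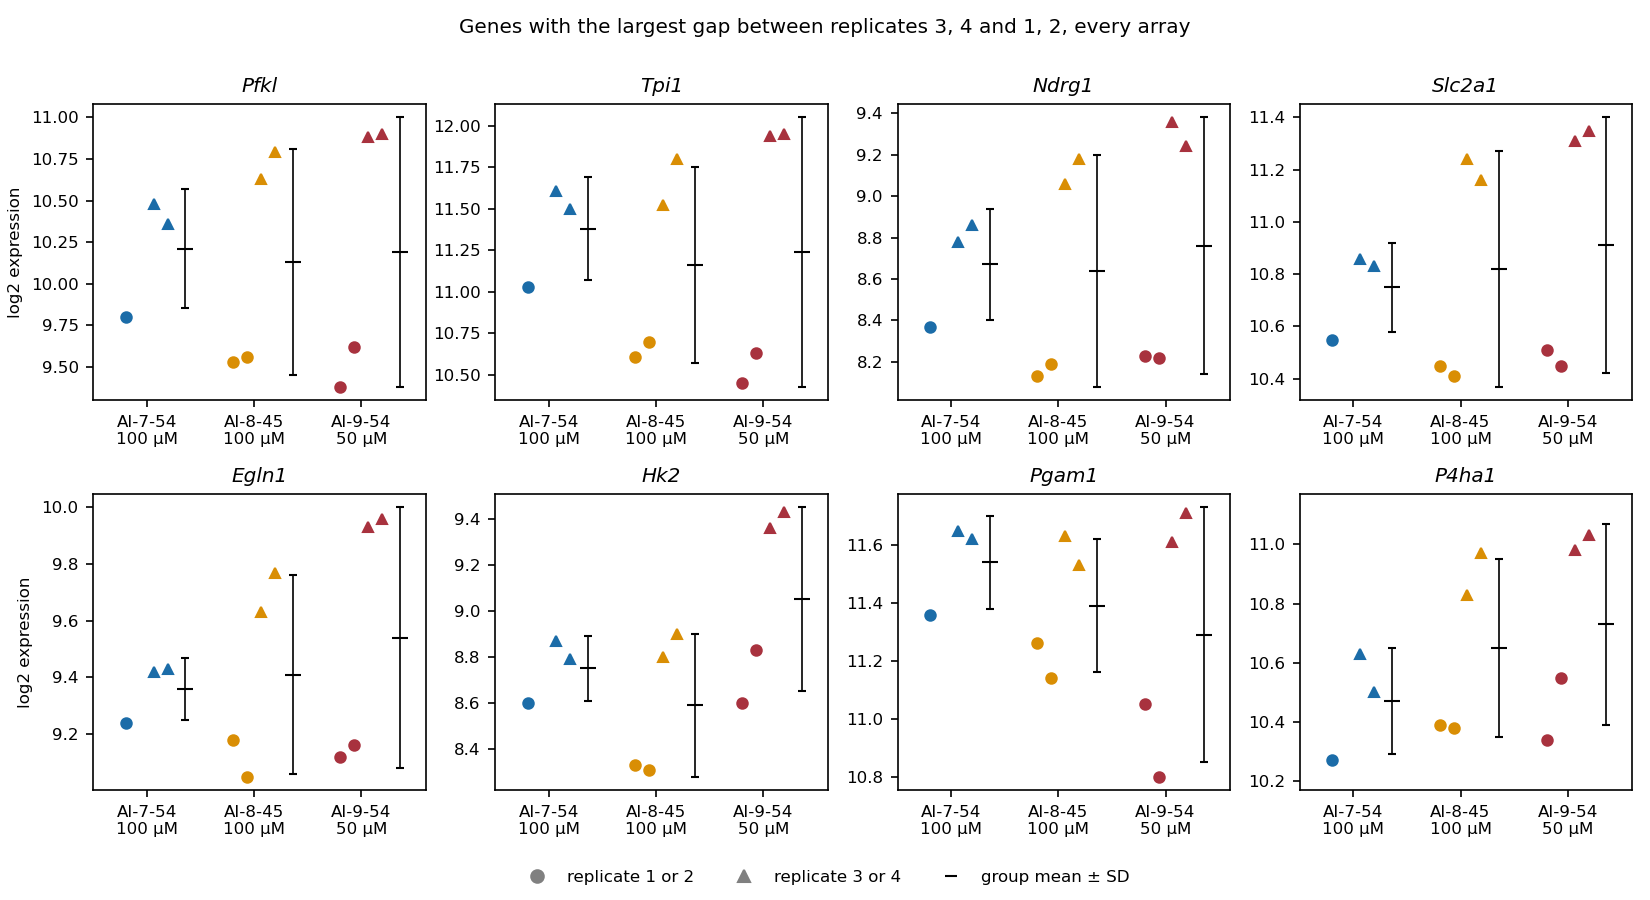
Log2 expression (vertical axis) of the 8 genes with the largest mean gap between replicates 3 and 4 and replicates 1 and 2, on every array, by compound and dose; circles are replicates 1 and 2, triangles replicates 3 and 4, and bars the group mean ± SD. Each axis covers a different range. In all 8 panels every triangle lies above every circle of the same compound.

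Other genes of the pathway kept the same order with smaller gaps. The glucose-trapping hexokinase gene Hk2 (0.23, 0.53 and 0.68 under AI-7-54, AI-8-45 and AI-9-54), the phosphoglycerate mutase gene Pgam1 (0.28, 0.38 and 0.74) and the lactate dehydrogenase gene Ldha (0.18, 0.44 and 0.70) ranked 38, 44 and 55 of all genes. P4ha1, a collagen prolyl hydroxylase gene, ranked 46 (0.30, 0.51 and 0.56). Pgam1 had a similar gap on its second probe set (0.25, 0.47 and 0.38). The platelet-type phosphofructokinase gene Pfkp, the enolase gene Eno2, the pyruvate kinase gene Pkm, Kdm3a, Pfkfb3, Bnip3, Hif1a and Mxi1 kept the order under all 3 compounds with mean gaps of 0.15 to 0.32. Pdk1, whose kinase turns pyruvate away from mitochondria, had gaps of 0.40 and 0.39 under AI-8-45 and AI-9-54 and 0.03 under AI-7-54, where the arrays overlapped.

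Other genes of the same steps had little or no gap. Gapdh and Pgk1 had mean gaps of 0.08 and 0.07, and Aldoc, Pfkm and Pfkfb4 of 0.06 to 0.08. The second T-cell glucose carrier Slc2a3 had a mean gap of -0.06, the hexokinase gene Hk1 of -0.10 and the oxidoreductase gene Ero1a of -0.09. Slc16a1, Slc16a3, Egln3, Vhl, Vegfa, Car9, P4ha2 and Adm lay between -0.04 and 0.07, although Vegfa ran from -0.15 under AI-7-54 to 0.23 under AI-8-45. Isozymes thus had unlike gaps, wide for Hk2, Pfkl, Pfkp and Slc2a1 and narrow for Pfkm and Slc2a3, a difference that was not tested. The gap of Hk1 was small and ran downward without overlap under every compound, and the replicate set took 71.1% of its variance. Gapdh, Pgam1 and other glycolytic genes have near-identical processed copies in the mouse genome, so their probe sets may read more than the named transcript.

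The replicate set (1 and 2, or 3 and 4) alone took 90.6% of the variance of Pfkl over the 11 arrays, 88.2% of Tpi1 and 87.5% of Ndrg1, while compound alone took 0.416%, 2.59% and 1.51%. The medians for the replicate set were 41.5% over the 34 genes and 7.95% over all genes. For compound alone they were 17.5% and 24.3%. Egln3, Slc16a1, Hif1a, Vegfa and Ero1a were the reverse, with 78.3% to 92.5% of the variance taken by compound and 0.0872% to 13.6% by replicate set.

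**Figure D2:**
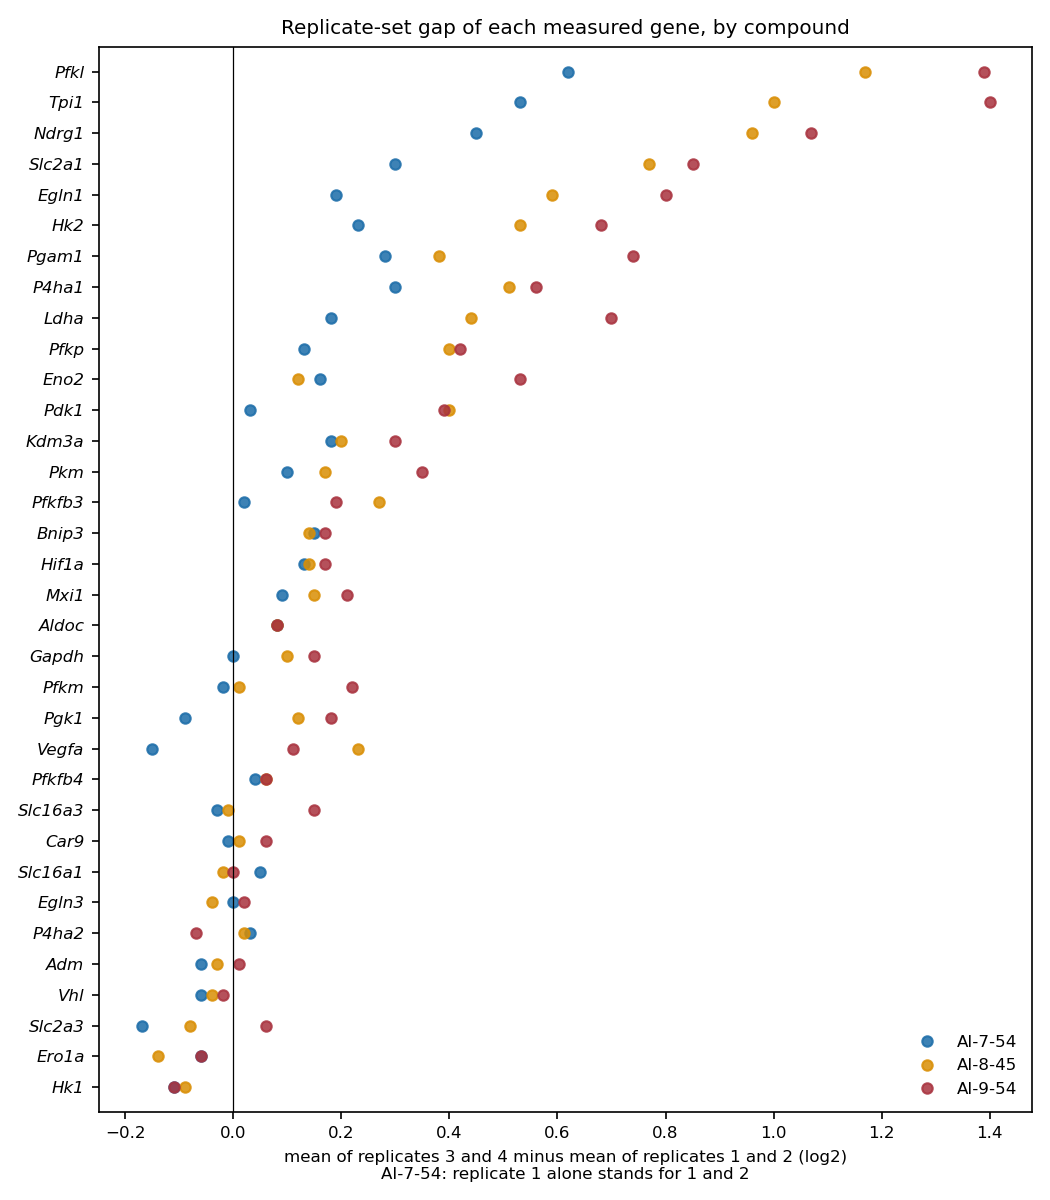
Gap in log2 expression between replicates 3 and 4 and replicates 1 and 2 (horizontal axis) for each of the 34 measured genes (vertical axis, ordered by the mean gap), with 1 point per compound. Pfkl and Tpi1 reach 1.39 and 1.40 under AI-9-54, and AI-7-54 points lie left of the other compounds for most genes at the top.

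Genes with promoter matches were spread over both patterns. Of the 17 genes above, 16 had a promoter entry, and 14 of these held ACGTG or GCGTG. Of the 17 other measured genes, 16 had an entry and 15 held a match.

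At the matched dose of 100 µM, AI-8-45 was set against AI-7-54. The lactate carrier gene Slc16a1 was lower after AI-8-45, and no gene of the 34 was called higher. That is 1 of 34 genes called by limma at an adjusted p under 0.05, where 5.66% of all genes were called (2.13% higher and 3.53% lower). At an unadjusted p under 0.05, 5 genes of the 34 were higher and 2 lower, where 7.25% and 9.45% of all genes were. Quantile normalization and 75th percentile centring each gave 2 higher and 1 lower, where 6.33% and 5.47% of all genes were called. The median difference was 0.00 in the 34 genes and 0.001 over all genes.

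Slc16a1 encodes the carrier that moves lactate and pyruvate across the plasma membrane. Its log2 levels were 11.95, 12.00 and 11.99 after AI-7-54 and 11.79, 11.82, 11.76 and 11.82 after AI-8-45. All AI-8-45 arrays were low and all AI-7-54 arrays high, with no overlap. The mean was 11.80 ± 0.03 (SD, n = 4) against 11.98 ± 0.03 (n = 3), a log2 difference of -0.19 ± 0.04 (SE) with a limma adjusted p of 0.0174. Within replicates 1 and 2 the difference was -0.15 and within replicates 3 and 4 it was -0.21. Leaving out replicate 3 of AI-7-54 gave an adjusted p of 0.0845 and leaving out its replicate 4 gave 0.0737, so either ended the call.

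The oxygen-sensing genes and the hypoxia panel gave differences that missed the threshold at 100 µM. Hif1a differed by 0.18 (95% interval 0.04 to 0.33, limma adjusted p 0.151) and Kdm3a, a histone demethylase gene, by 0.26 (0.05 to 0.46, adjusted p 0.158). Car9, the gene for a carbonic anhydrase of the cell surface, differed by 0.20 (0.08 to 0.32, adjusted p 0.0623). Adm, the adrenomedullin gene, differed by 0.24 with an adjusted p of 0.0613, at levels below the array medians. For each of these 4 genes all AI-8-45 arrays lay above all AI-7-54 arrays, as did those of Eno2, where 6.79% of all genes did so. For 4 genes, Slc16a1, Slc2a3, Pfkfb4 and P4ha2, they all lay below, as for 9.07% of all genes. The nearest arrays of the compounds both read 7.55 for Pfkfb4 when rounded, and 6.34 and 6.31 for P4ha2, a gene below the array medians. With the replicate set in the model, Hif1a (0.21, adjusted p 0.0064), Kdm3a (0.30, 0.00138), Car9 (0.20, 0.0462) and P4ha1 (0.26, 0.0375) were called higher, which brings the count to 5 of 34. The share of all genes called rose with it, from 5.66% to 8.79%. The replicate set was found in these same arrays, so adjusted p-values from the model that holds it, here and below, may be too small. Hif1a differed by 0.20 within replicates 1 and 2 and by 0.21 within replicates 3 and 4, and Kdm3a by 0.28 and 0.30.

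Glycolytic enzymes with a wide replicate gap had wide intervals in this comparison. The interval of the difference ran from -0.99 to 0.82 for Pfkl, from -1.08 to 0.64 for Tpi1 and from -0.50 to 0.63 for Slc2a1. Those of Gapdh (-0.12 to 0.12), Pgk1 (-0.09 to 0.19) and Hk1 (-0.07 to 0.16) were narrow. A missed threshold does not show that the compounds act alike on the former genes.

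The comparison of AI-9-54 at 50 µM with AI-7-54 at 100 µM differs in dose, so compound and dose cannot be told apart. Hif1a and 4 genes of the hypoxia panel (Vegfa, Car9, Ero1a and Kdm3a) were higher after AI-9-54, as was the enolase gene Eno2. Egln3 and Slc16a1 were lower. In total 6 of 34 genes were higher and 2 lower, 23.5% of the list, where 14.2% of all genes were called (6.87% higher and 7.29% lower). With an unadjusted p under 0.05 the counts were again 6 higher and 2 lower, where 24.4% of all genes passed (12% higher and 12.5% lower). The list thus did not exceed the share of all genes at that threshold. The median difference was 0.08 in the 34 genes and -0.001 over all genes. The hypoxia panel outside glycolysis had 4 of 10 genes higher (median 0.18), and the preparatory steps of glycolysis had 0 of 7 called (median -0.02). Replicate 2 was absent for AI-7-54 only, so differences against it read lower for genes with a wide replicate gap. With the replicate set in the model, Pfkl moved from -0.02 to 0.17, Tpi1 from -0.14 to 0.03 and Slc2a1 from 0.16 to 0.27, none called. Hk2, of the preparatory steps, moved from 0.30 to 0.39 and was then called.

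Hif1a, which encodes the oxygen-regulated subunit of HIF, had log2 levels of 11.30, 11.47 and 11.39 after AI-7-54. After AI-8-45 they were 11.51, 11.49, 11.64 and 11.65, and after AI-9-54 11.79, 11.78, 11.93 and 11.98. All AI-7-54 arrays were lowest, all AI-9-54 arrays highest and those of AI-8-45 between, with no overlap. The mean after AI-9-54 was 11.87 ± 0.10 (SD, n = 4) against 11.39 ± 0.08 (n = 3), 1.40-fold higher (log2 difference 0.48 ± 0.07, SE, limma adjusted p 0.000392). Replicates 1 and 2 gave 0.48 and replicates 3 and 4 gave 0.52, and the call held under all 25 alternatives run. A second, dimmer Hif1a probe set differed by 0.25 (adjusted p 0.0284).

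Egln3, a HIF-induced prolyl hydroxylase that acts back on HIF, went the other way. Its levels were 11.36, 11.37 and 11.34 after AI-7-54 and 11.45, 11.38, 11.44 and 11.31 after AI-8-45, and these overlapped. After AI-9-54 they were 11.08, 10.97, 10.99 and 11.09, below every array of the other compounds. The mean was 11.03 ± 0.06 against 11.36 ± 0.02, a log2 difference of -0.32 ± 0.05 (SE, limma adjusted p 0.000798) with -0.33 in replicates 1 and 2 and -0.32 in replicates 3 and 4. Egln1 differed by 0.18 and Vhl by 0.03, both not called (intervals -0.32 to 0.67 and -0.09 to 0.15).

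Vegfa encodes the main angiogenic growth factor induced by HIF. It read 8.88, 8.77 and 8.69 after AI-7-54, 8.94, 8.80, 9.04 and 9.17 after AI-8-45, and 9.30, 9.29, 9.50 and 9.31 after AI-9-54. The AI-9-54 arrays lay above all others, and those of AI-7-54 and AI-8-45 overlapped. The mean was 9.35 ± 0.10 (SD, n = 4) against 8.78 ± 0.09 (n = 3) after AI-7-54, 1.49-fold higher (log2 difference 0.58, limma adjusted p 0.000586). Within replicates 1 and 2 it was 0.42 and within replicates 3 and 4 it was 0.68.

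Eno2, the neuronal-type enolase gene and a known HIF target, had levels of 7.38, 7.56 and 7.52 after AI-7-54, 7.60, 7.73, 7.76 and 7.81 after AI-8-45, and 7.79, 7.76, 8.31 and 8.30 after AI-9-54. Among the AI-9-54 arrays, replicates 3 and 4 stood above replicates 1 and 2. The difference to AI-7-54 was 0.55 ± 0.13 (SE, 1.47-fold, limma adjusted p 0.0124), with 0.40 within replicates 1 and 2 and 0.77 within replicates 3 and 4. It missed the threshold without AI-7-54 replicate 1 (adjusted p 0.054).

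Ero1a, an oxidoreductase gene that forms disulfide bonds in the endoplasmic reticulum, read 10.40, 10.31 and 10.36 after AI-7-54 and 10.61, 10.67, 10.55 and 10.62 after AI-9-54. All AI-9-54 arrays were higher, by 0.26 (limma adjusted p 0.0106), with 0.25 in either replicate set. Its dimmer probe set differed by -0.02, and as the mean of the 2 probe sets the difference was 0.12 (adjusted p 0.24). Without AI-7-54 replicate 3 the adjusted p was 0.0539.

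Kdm3a read 10.59, 10.75 and 10.78 after AI-7-54, 10.87, 10.85, 11.01 and 11.12 after AI-8-45, and 10.91, 10.88, 11.20 and 11.19 after AI-9-54. The AI-7-54 arrays were lowest and the other compounds overlapped. Its difference of 0.34 between AI-9-54 and AI-7-54 (limma adjusted p 0.0296) came to 0.31 in replicates 1 and 2 and to 0.43 in replicates 3 and 4. The call ended when any single AI-7-54 array, or AI-9-54 replicate 3 or 4, was left out (adjusted p 0.0542 to 0.122). Car9 read 9.02, 8.90 and 9.11 after AI-7-54 and 9.16, 9.20, 9.30 and 9.17 after AI-9-54. Its difference of 0.20 (adjusted p 0.0313) also lost the call without AI-7-54 replicate 1 (0.0725) or 3 (0.158), or AI-9-54 replicate 2 (0.0587) or 3 (0.079), with median centring (0.073), as the mean of its probe sets (0.062) and when AI-8-45 was left out of the fit (0.0678).

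Slc16a1 was lower after AI-9-54 as well, at 11.71, 11.81, 11.77 and 11.76, a log2 difference of -0.22 ± 0.04 (SE, limma adjusted p 0.00286). Replicates 1 and 2 gave -0.19 and replicates 3 and 4 gave -0.24. The comparisons of AI-8-45 and AI-9-54 share the AI-7-54 arrays, so the results on this gene are not independent. The other carriers were not called: Slc16a3, the hypoxia-inducible lactate carrier gene, differed by 0.10 (interval -0.06 to 0.26), Slc2a1 by 0.16 (-0.41 to 0.73) and Slc2a3 by -0.02 (-0.15 to 0.11).

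**Figure D3:**
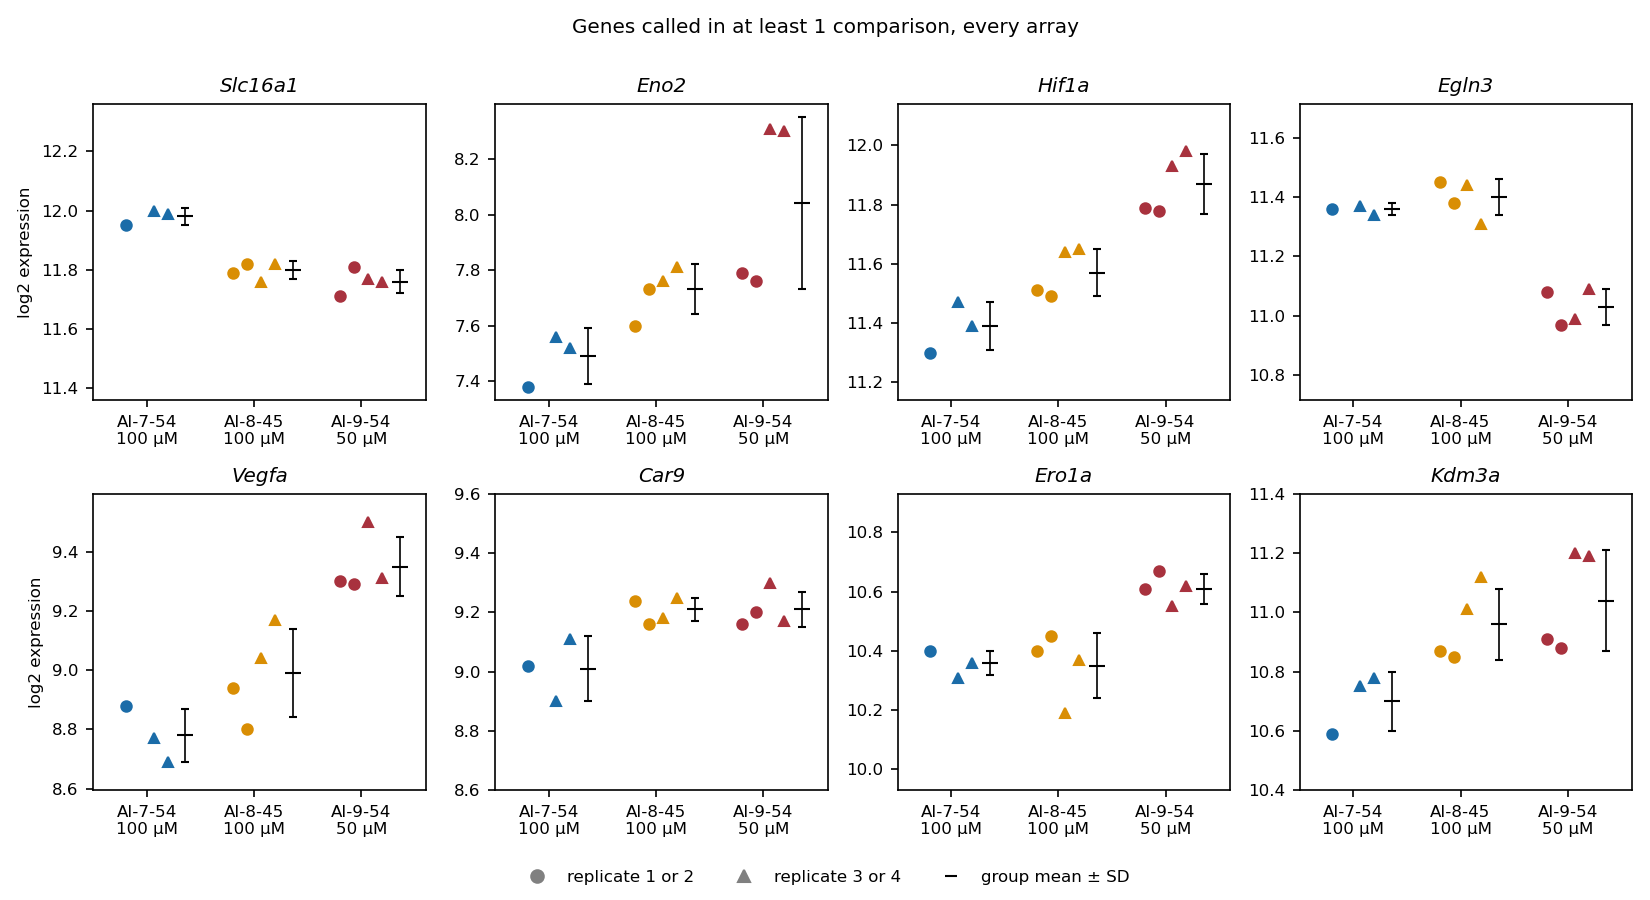
Log2 expression (vertical axis) of the 8 genes called in at least 1 comparison, on every array, by compound and dose; circles are replicates 1 and 2, triangles replicates 3 and 4, and bars the group mean ± SD. Each axis covers a different range. Hif1a climbs from 11.39 to 11.57 and 11.87 in the group means, Egln3 is low under AI-9-54 at 11.03, and Slc16a1 is highest under AI-7-54 at 11.98.

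The rest of the glycolytic chain was not called over all arrays, which does not show equal levels. Gapdh (-0.06, interval -0.18 to 0.06), Pgk1 (0.08, -0.07 to 0.22), Pkm (-0.06, -0.27 to 0.15) and Ldha (-0.11, -0.52 to 0.31) had intervals that include 0. With the replicate set in the model 3 more genes were called higher, Hk2 (0.39, adjusted p 0.00681), P4ha1 (0.34, 0.00443) and Mxi1, a MYC antagonist gene (0.18, 0.0345), giving 9 higher and 2 lower. That model called 8.99% of all genes higher and 9.21% lower. Mxi1 differed by 0.01 on its second probe set.

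The difference between AI-9-54 and AI-7-54 was not the same size in the replicate sets for many of these genes. Within replicates 1 and 2, Pfkl, Tpi1, Ldha and Pgam1 differed by -0.30, -0.49, -0.33 and -0.43. Within replicates 3 and 4 they differed by 0.47, 0.39, 0.18 and 0.02. Slc2a1 went from -0.07 to 0.48, Egln1 from -0.10 to 0.51 and Ndrg1 from -0.14 to 0.48. A limma test of this change between the sets (the compound by set interaction, added after seeing the data) called 0 of the 34 genes, with a smallest adjusted p of 0.133 for Slc2a1 (change 0.55 ± 0.09, SE). It called 0.0316% of all genes with a more positive and 0.00902% with a more negative difference in replicates 3 and 4. At an unadjusted p under 0.05, 13 of 34 genes had a more positive difference in replicates 3 and 4 and 0 a more negative one, where 4.38% and 4.61% of all genes did. For AI-8-45 against AI-7-54 the same counts were 12 and 0 of 34, where 2.43% and 2.27% of all genes passed, and again 0 after adjustment. For AI-9-54 against AI-8-45 they were 5 and 0 of 34, where 2.96% and 3.31% of all genes passed, and after adjustment 0 of 34 and 0.0135% of all genes. In AI-7-54 the first set rests on replicate 1 alone, and the sets were found in these arrays. Both comparisons against AI-7-54 share that array, so their counts are not independent.

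AI-9-54 at 50 µM was also set against AI-8-45 at 100 µM, again with unlike doses. Hif1a, Vegfa and Ero1a were higher after AI-9-54 and Egln3 was lower. These are 4 of 34 genes, 11.8%, where 1.31% of all genes were called (0.708% higher and 0.6% lower), and the medians were 0.04 in the 34 genes and 0.000 over all genes. With an unadjusted p under 0.05, 7 genes of the 34 were higher and 1 lower, where 6.08% and 5.34% of all genes were. Egln3 had the clearest difference, -0.36 ± 0.05 (SE, limma adjusted p 0.00183), with -0.39 within replicates 1 and 2 and -0.34 within replicates 3 and 4. The groups did not overlap for 5 of the 34 genes, the 4 called and Slc2a3, with 4 higher and 1 lower. Over all genes this held for 6.67%, 3.83% higher and 2.84% lower. Hif1a was 1.23-fold higher (0.30, adjusted p 0.0358), Vegfa 1.29-fold (0.37, 0.0394) and Ero1a 1.20-fold (0.26, 0.0394).

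The 3 upward calls lay near the threshold. Leaving out any single AI-8-45 array ended the Hif1a call (adjusted p 0.0566 to 0.115), as did leaving out AI-9-54 replicate 3 or 4 (0.105 and 0.0906) or AI-7-54 replicate 4 (0.0618). Vegfa lost the call in 9 of 11 such cases (0.0585 to 0.124), all but those without AI-7-54 replicate 1 or AI-8-45 replicate 4. Ero1a lost it in 10 of 11 (0.0524 to 0.107), all but that without AI-8-45 replicate 2, and on its dimmer probe set it differed by -0.07. All 3 lost it with median centring (0.0503 to 0.0624), which left 0 higher and 1 lower of the 34 and 0.906% of all genes called. Egln3 kept its call in all 11. With the replicate set in the model all 4 were called (adjusted p 0.00077 for Hif1a, 0.0145 for Vegfa, 0.00868 for Ero1a and 0.000957 for Egln3), along with Hk2 (0.47, 0.00601), Pfkp (0.35, 0.00584) and Eno2 (0.31, 0.0415), which makes 7 of 34 where 3.68% of all genes were called. Hk2 read 8.33, 8.31, 8.80 and 8.90 after AI-8-45 and 8.60, 8.83, 9.36 and 9.43 after AI-9-54, so the compounds overlapped over all arrays and were apart within each replicate set (0.39 and 0.54). The same held for Pfkp, at 9.65, 9.56, 9.94 and 10.07 against 9.93, 9.96, 10.39 and 10.34. Slc16a1 and Car9 were close between these compounds, with differences of -0.03 (interval -0.12 to 0.05) and 0.00 (-0.11 to 0.11).

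**Figure D4:**
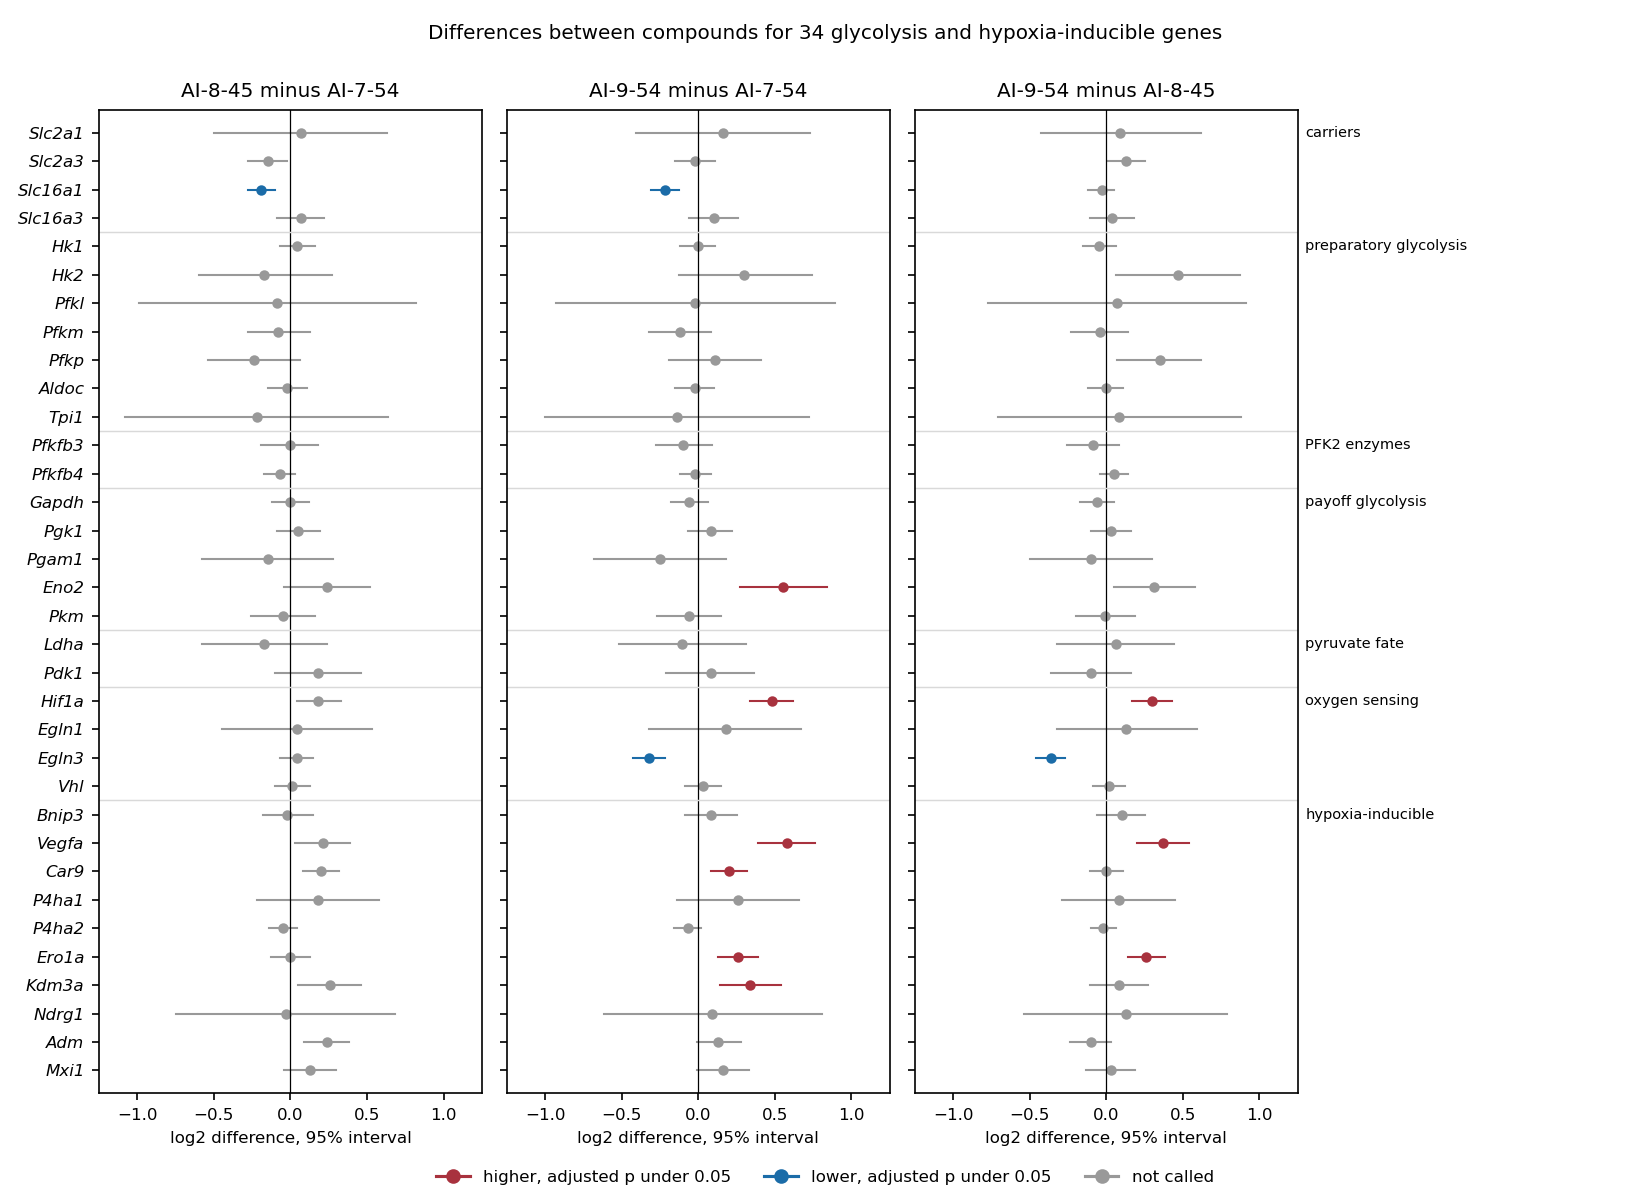
Log2 difference between compounds with its 95% interval (horizontal axis) for the 34 measured genes (vertical axis, grouped by role), from limma across all genes. Red and blue mark genes called higher or lower at an adjusted p under 0.05 and grey the rest; the widest intervals belong to Pfkl, Tpi1 and Ndrg1, whose levels separated by replicate number.

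The remaining genes of the list were called in none of the comparisons. They include the PFKFB enzymes Pfkfb3 and Pfkfb4, which set the level of the activator of phosphofructokinase (differences of -0.10 to 0.05), the aldolase gene Aldoc (-0.02 to 0.00) and Pfkm (-0.12 to -0.04). Bnip3, a mitophagy receptor gene, P4ha2 and Adm had means below the array medians, so their signals are dim. Bnip3 ranged from 5.47 to 5.84, P4ha2 from 6.21 to 6.38 and Adm from 5.85 to 6.27.

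Beyond the list, 96 of 107 further genes of glucose use, the pentose phosphate pathway, oxygen sensing and the hypoxia response were measured. Of these, 2 were higher and 7 lower between AI-8-45 and AI-7-54, 13 higher and 15 lower between AI-9-54 and AI-7-54, and 2 higher and 3 lower between AI-9-54 and AI-8-45. These are 9.38%, 29.2% and 5.21% of the 96, where 5.66%, 14.2% and 1.31% of all genes were called. The median differences were -0.03, -0.02 and 0.01.

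The list of pentose phosphate genes, whose pathway draws glucose into ribose and NADPH, also holds Prps1 and Prps2, which use its ribose phosphate. Genes of this list were lower in 3 of 8 cases after AI-8-45 and in 5 of 8 after AI-9-54, each against AI-7-54, and higher in none. Both Prps genes were lower in either comparison, and Taldo1 was the other gene called after AI-8-45. Of all genes 3.53% and 7.29% were called lower in these comparisons. The medians of the list were -0.19 and -0.22, and with AI-7-54 shared the counts are not independent. Pgd and H6pd differed by -0.04 and 0.05 between AI-9-54 and AI-7-54 and were not called, and G6pdx and Tkt were not measured. The ribose-phosphate pyrophosphokinase genes were Prps2 (-0.46 between AI-9-54 and AI-7-54, limma adjusted p 7.07e-05) and Prps1 (-0.32 between AI-8-45 and AI-7-54, 0.0194). Prps2 also was lower after AI-9-54 than after AI-8-45 (-0.26, 0.0201). Of other glycolysis genes, Pgam2, the muscle-type mutase gene, was lower after AI-9-54 (6.73 ± 0.04, SD, against 7.42 ± 0.11 after AI-7-54 and 7.17 ± 0.05 after AI-8-45, adjusted p 7.14e-06 and 0.00114). Pgam2 was also lower after AI-8-45 than after AI-7-54 (-0.26, 0.0153). The pyruvate dehydrogenase phosphatase gene Pdp2 was lower than after AI-7-54 with either compound (-0.29, 0.025, after AI-8-45 and -0.33, 0.00547, after AI-9-54).

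Of 13 further oxygen-sensing genes, 5 were higher and 1 lower between AI-9-54 and AI-7-54, and 0 were called between AI-8-45 and AI-7-54. Of all genes 6.87% were called higher and 7.29% lower in the former comparison, and 5.66% were called in the latter. Epas1, the gene for the sister subunit of HIF1A, was higher under AI-9-54 than under AI-7-54 by 0.58 (limma adjusted p 0.0161) and than under AI-8-45 by 0.62 (0.0417). Against the order of Hif1a, Epas1 was lower in replicates 3 and 4 than in replicates 1 and 2 under each compound, by a mean gap of -0.36. Its difference to AI-7-54, which lacks replicate 2, thus reads higher.

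Of 39 further hypoxia-inducible genes, 7 were higher and 3 lower between AI-9-54 and AI-7-54, where 6.87% and 7.29% of all genes were, so the lower count lay near the share of all genes. The lipoprotein receptor gene Vldlr (1.09, limma adjusted p 0.000551), the cyclin gene Ccng2 (0.67, 0.00941) and the nuclear receptor gene Rora (0.55, 0.000241) were higher. Vldlr was also higher after AI-8-45 than after AI-7-54 (0.69, 0.0213), as was the histone demethylase gene Kdm4c (0.20, 0.0452). With replicate 2 of AI-7-54 absent, differences to AI-7-54 read higher for Vldlr (mean replicate gap -0.38) and lower for Ccng2 (mean gap 0.40). The carbonic anhydrase gene Car12 was lower (7.79 ± 0.05, SD, n = 4, after AI-9-54, 8.05 ± 0.04, n = 4, after AI-8-45 and 8.59 ± 0.03, n = 3, after AI-7-54). Its adjusted p was 7.69e-07 between AI-9-54 and AI-7-54, 4.22e-05 between AI-8-45 and AI-7-54 and 0.00833 between AI-9-54 and AI-8-45. Angptl4 was lower than after AI-7-54 with either compound (-0.43, 0.000742, and -0.30, 0.0161). Rora was higher (0.31, 0.0417) after AI-9-54 than after AI-8-45.

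The replicate order seen in the list was found in part of these further genes. All replicate 3 and 4 arrays lay above all replicate 1 and 2 arrays of the same compound for 11 of 96 genes and below them for 9, where 5.64% and 5% of all genes did so. The hypoxia-inducible genes Fam162a, Higd1a, Mif and Plod2 had mean gaps of 0.46, 0.47, 0.36 and 0.33, with 0.20, 0.08, 0.12 and 0.12 under AI-7-54 and 0.68, 0.73, 0.57 and 0.44 under AI-9-54. Other hypoxia-inducible genes kept the order without a narrower gap under AI-7-54 than under AI-8-45. They were Tfrc (0.49, 0.47 and 0.48 under AI-7-54, AI-8-45 and AI-9-54), Ccng2 (0.45, 0.30 and 0.45) and Nampt (0.31, 0.18 and 0.40). Hmox1, Vldlr and the gluconeogenic gene Fbp1 were lower in replicates 3 and 4, with mean gaps of -0.61, -0.38 and -0.52. All genes named in this paragraph were chosen after their values were seen.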

How the data were processed

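Single-colour Affymetrix arrays of 11 samples were analysed. Total RNA from RNeasy columns was amplified (Ambion WT Expression) and biotin-labelled, per the labels' protocols. RMA and Partek 6.6 are named in the submitters' processing notes. The deposited values lay between 3.23 and 13.8 and were read as log2 probe set signals. No genome build for the probe sets is given in the sources used here. Among 41345 probe sets, 16010 were unnamed here, 1814 carried several symbols and 23521 a single one. Entrez identifiers gave current symbols for 23328 of these, and 22180 genes remained, each read from its probe set with the highest mean. No background level was used.

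All comparisons came from a single model on all 11 arrays in limma 3.58.1 (R 4.3.3; lmFit and eBayes, with 8 residual degrees of freedom and a prior of 4.14). Tests were two-sided, adjusted with Benjamini-Hochberg over all genes and called at an adjusted p under 0.05. The genes, lists and tests were chosen with earlier results of these data known. All 34 measured genes could be named, and of the further lists, per comparison, up to 4 genes called higher and 4 called lower, by size of the difference. Further genes outside this rule are named only to limit a count or to describe the replicate order. On simulated data with 22180 genes, changes of 0.25 were recovered at 30%, 34% and 42% and changes of 0.5 at 96%, 92% and 82% (AI-8-45 against AI-7-54, AI-9-54 against AI-7-54, AI-9-54 against AI-8-45), so changes of about 0.25 are often missed. The simulated noise was independent between arrays, without a replicate set. The rates are averages over randomly drawn genes and do not hold for genes with a wide spread, such as Pfkl (SE 0.42 between AI-8-45 and AI-7-54). Alternatives, of which the compound by replicate set interaction was added after seeing the data, covered scaling, filters, probe set choice, prior, weights, samples, replicate block, replicate set and each array left out. The replicate set itself was drawn from these arrays, so the model that holds it may give adjusted p-values that are too small. Plots used matplotlib 3.10.9 (Python 3.11.15).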

Additional observations from a re-analysis of the deposited data

Results flagged for a closer look

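In the groups of 4 arrays, 68 sets of values were examined and 3 held an array far from the other 3, where chance gives about 1 in 20 groups. Slc2a3 was at 11.23 in AI-8-45 replicate 3 and at 11.38 to 11.41 in the others. Vegfa was at 9.50 in AI-9-54 replicate 3 and at 9.29 to 9.31 in the others. P4ha2 was at 6.27 in AI-8-45 replicate 1 and at 6.31 in the others, a gap of 0.04 in a dim gene.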

How the results depend on the processing

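Of the single differences of the 34 genes, 2434 results kept their side of the threshold under the alternatives, 70 lost the call, 36 gained one and 1 reversed. A change of sign in a difference called under neither setting was not counted as a reversal, so not all of the 2434 kept their direction. The reversed one was Pfkl between AI-9-54 and AI-7-54, at 0.47 with only replicates 3 and 4 (adjusted p 0.0118) against -0.02 over all arrays. No scaling moved the median of all genes by over 0.1. Counts below are genes called by limma among the 34, the 96 further genes and all genes. For AI-8-45 against AI-7-54 (1, 9 and 1255), the 34 gave 3 with quantile normalization and 3 with 75th percentile centring. They gave 2 among genes above the median level and 2 with array weights, where the 96 gave 17 and 18. In the same order of settings, all genes gave 1403, 1213, 1688 and 1825, the 1688 from genes above the median level only. With the replicate set in the model the counts were 5, 17 and 1949, with only replicates 1 and 2 they were 0, 0 and 2, and with only replicates 3 and 4 the 34 gave 2 and all genes 613. For AI-9-54 against AI-7-54 (8, 28 and 3139), replicates 1 and 2 gave 1, 10 and 593. Replicates 3 and 4 gave 14 of the 34 and 2189 of all genes. For AI-9-54 against AI-8-45 (4, 5 and 290), median centring gave 1 of the 34 and 201 of all genes. Genes above the median level gave 436, and the compared groups alone gave 1, 3 and 141. The replicate set gave 7, 10 and 816, replicates 1 and 2 gave 0, 0 and 6, and replicates 3 and 4 gave 2 of the 34 and 143 of all genes. Fewer arrays enter the fits within a set; for the other changes the cause was not tested. Leaving out each array in turn gave 0 to 2, 1 to 10 and 540 to 1229 in the first comparison. The lowest counts of all 3 came without AI-7-54 replicate 3, and without its replicate 4 there were 2 of the 96 and 622 of all genes, without AI-8-45 replicate 2 there were 4 of the 96, and without AI-8-45 replicate 3 there were 2 of the 34. In the second comparison it gave 5 to 8, 15 to 31 and 2103 to 3290, with 5 of the 34 without AI-7-54 replicate 1 or 3, and 16 and 15 of the 96 without AI-7-54 replicate 3 or 4. In the third it gave 1 to 3, 2 to 5 and 128 to 257, with 128 to 189 of all genes without any AI-8-45 array, AI-9-54 replicate 2, 3 or 4, or AI-7-54 replicate 4. The 34 gave 1 or 2 without any array other than AI-7-54 replicate 1, and the 96 gave 2 or 3 without any other than AI-7-54 replicate 1 or 3 or AI-9-54 replicate 4.

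Same-numbered samples of different compounds deviated together with r from -0.02 to 0.45 over 10 pairs, not all above 0.1, so the numbers were not taken as pairs. Samples of different compounds within the same replicate set, those pairs included, gave r from -0.02 to 0.49, and samples from different sets r from -0.48 to 0.01, and the model over all arrays holds no term for the set. With the replicate number as a block, 3 of the 34, 14 of the 96 and 1408 of all genes were called between AI-8-45 and AI-7-54. Between AI-9-54 and AI-7-54 that model called 11 of the 34 and 3297 of all genes. Between AI-9-54 and AI-8-45 it called 6 of the 34 and 517 of all genes. The number of arrays limits small differences: changes near 0.25 were often missed in simulated data.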
